A study of Rattus norvegicus with 10 samples.

Results

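Messenger RNA of 8 genes that make, sense and carry cholesterol was examined in the hippocampus of rats with epilepsy after amygdala stimulation and of sham rats. The genes were taken by name, and all 8 were found among the 32041 transcript rows of the count matrix, each passing the filter on low counts. They were Hmgcs1, Idi1, Fdft1, Sqle and Dhcr7, which encode enzymes of synthesis, Srebf2 and Insig1, which encode regulators, and Apoe, which encodes a carrier. Where a gene had several rows, the row with the highest mean count stood for it. This applied to Apoe, with 5 rows, while the other 7 genes had 1 row each.

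The animals were adult male Sprague-Dawley rats, an outbred strain. Each of the 10 rats carried an electrode in the left lateral amygdala. The 5 sham rats (rats 1 to 5) received no current. In the 5 stimulated rats (rats 6 to 10), status epilepticus was evoked through it with 400 µA pulses (60 Hz, 30 min) and ended with diazepam, a drug that is described for this group only, and the methods state that all of these animals later had spontaneous seizures. The left hippocampal piece with CA3 and dentate gyrus was collected 3 months after stimulation, and each rat gave 1 library.

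Cholesterol in the brain is made locally, because lipoproteins of the blood hardly cross the blood-brain barrier. Synthesis runs from acetyl-CoA through mevalonate and isoprenoids to squalene, lanosterol and cholesterol. The transcription factor SREBP-2, encoded by Srebf2, raises transcription of the synthesis enzymes when membranes are poor in sterol, and the protein of Insig1 holds its precursor in the endoplasmic reticulum when sterol is plentiful. Astrocytes deliver cholesterol to neurons on particles that contain apolipoprotein E, and neurons remove an excess by oxidation.

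Aligned counts per library ranged from 13552309 to 24086059. Of all reads, 32.01 to 45.14% were not aligned, with the 3 highest shares in stimulated rats 10, 9 and 8, and ribosomal RNA records took 1.82 to 12.22% of aligned counts. The values below are CPM, counts scaled to the size of each library with trimmed mean factors, and levels were not compared between genes because transcript lengths were not used. Markers of the labelled tissue were present. The summed CPM of dentate granule cell markers (4 tested of 7 listed) lay between 342.3 and 422.9 in sham rats, and that of CA3 pyramidal cell markers (5 tested of 6 listed) between 661.3 and 750.9. These sums ranged from 206.2 to 444.1 and from 631.6 to 770.7 in stimulated rats.

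Promoter motifs of these genes were described only, and their part in the expression values was not tested. RefSeq promoter sequences (build GRCr8, 250 bases before to 50 bases after the start site) were matched for 6 of the 8 genes, with 3 start sites for Apoe. Sqle and Fdft1 were not matched. CCAAT, the site of the factor NF-Y that works with SREBP at many sterol-responsive promoters, was found for 5 of the 6 genes, in 6 of 8 promoters, beside 37.5% of the 33469 promoters in the table. All 8 matches were on the opposite strand and read ATTGG. They lie at 7 distinct sites, because windows of 2 Apoe start sites overlap and hold the same match. The core of a sterol regulatory element, TCACNCCAC, was found in 0 of 8 promoters, beside 1.12% of all promoters. The shorter form TCACNCCA, which is contained in that core and was chosen after the sequences were seen, was found in the promoter of Srebf2, beside 3.89% of all promoters. GGGCGG, a site of Sp1, was found for 5 of the 6 genes, in 6 of 8 promoters, beside 33.1%. The 2 overlapping Apoe windows also hold the same GGGCGG matches. Both strands were searched for each motif. Below are 4 promoters with a CCAAT match and that of Dhcr7, which had none. Capitals mark CCAAT read on either strand and, in Srebf2, also the 8 bases that match the shorter form, and each sequence runs 5′ to 3′ toward the gene.
Hmgcs1 promoter, chr2:53382054-53382353, strand plus: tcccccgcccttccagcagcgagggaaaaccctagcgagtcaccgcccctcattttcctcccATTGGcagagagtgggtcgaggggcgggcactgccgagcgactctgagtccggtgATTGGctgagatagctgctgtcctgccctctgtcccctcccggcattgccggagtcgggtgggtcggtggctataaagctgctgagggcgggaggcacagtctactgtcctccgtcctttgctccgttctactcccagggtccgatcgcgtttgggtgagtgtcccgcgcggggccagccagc
Idi1 promoter, chr17:66547475-66547774, strand minus: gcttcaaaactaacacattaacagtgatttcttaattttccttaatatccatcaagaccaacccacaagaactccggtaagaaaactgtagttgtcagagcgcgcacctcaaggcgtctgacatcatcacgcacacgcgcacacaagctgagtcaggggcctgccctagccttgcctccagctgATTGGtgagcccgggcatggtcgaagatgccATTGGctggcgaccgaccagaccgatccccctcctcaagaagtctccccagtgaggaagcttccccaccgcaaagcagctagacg
Insig1 promoter, chr4:8057720-8058019, strand minus: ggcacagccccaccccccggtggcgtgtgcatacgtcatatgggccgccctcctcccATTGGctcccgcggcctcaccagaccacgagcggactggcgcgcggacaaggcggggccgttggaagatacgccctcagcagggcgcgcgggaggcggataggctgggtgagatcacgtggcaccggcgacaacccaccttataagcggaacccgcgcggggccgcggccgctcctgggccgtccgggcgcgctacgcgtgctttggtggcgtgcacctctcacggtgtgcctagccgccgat
Srebf2 promoter, chr7:115543057-115543356, strand plus: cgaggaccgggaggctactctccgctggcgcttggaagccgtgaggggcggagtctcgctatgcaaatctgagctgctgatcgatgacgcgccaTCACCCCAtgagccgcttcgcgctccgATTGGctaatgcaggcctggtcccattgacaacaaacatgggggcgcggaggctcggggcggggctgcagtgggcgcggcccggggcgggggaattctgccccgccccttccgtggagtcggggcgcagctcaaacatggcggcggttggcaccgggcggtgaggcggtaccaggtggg
Dhcr7 promoter, chr1:208444184-208444483, strand plus: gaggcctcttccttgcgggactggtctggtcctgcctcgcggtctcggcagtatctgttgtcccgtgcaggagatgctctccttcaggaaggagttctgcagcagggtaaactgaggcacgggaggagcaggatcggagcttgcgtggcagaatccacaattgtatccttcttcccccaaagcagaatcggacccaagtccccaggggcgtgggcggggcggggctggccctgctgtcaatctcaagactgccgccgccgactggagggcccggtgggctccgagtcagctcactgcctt

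None of the 8 genes passed the test of a difference between stimulated and sham rats. In the quasi-likelihood test of edgeR, 0 of 8 had an adjusted p-value under 0.05, where 0.0% of the 22447 tested features did, and 0 of 8 had an unadjusted p-value under 0.05, where 9.86% of features did. The same 2 counts were 0 with DESeq2, edgeR's likelihood ratio and exact tests and limma-voom. The groups overlapped for all 8 genes, while they did not overlap for 1.29% of features. The fitted log2 fold change of stimulated over sham rats was above 0 for 6 genes and below 0 for 2, where 52.2% of all features were above 0. Its median was 0.11 beside 0.01 over all features. Without stimulated rat 7, only the fold changes of Idi1 (0.126) and Dhcr7 (0.127) were above 0. Stimulated rat 7 had the highest CPM of 6 of the 8 genes and the lowest CPM of Apoe, a pattern noticed after the values were seen. Rat 7 was the highest of the 10 rats for 17.7% and the lowest for 17.2% of all features. In bulk tissue, fewer cells of a type and less RNA per cell cannot be told apart.

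**Figure D1:**
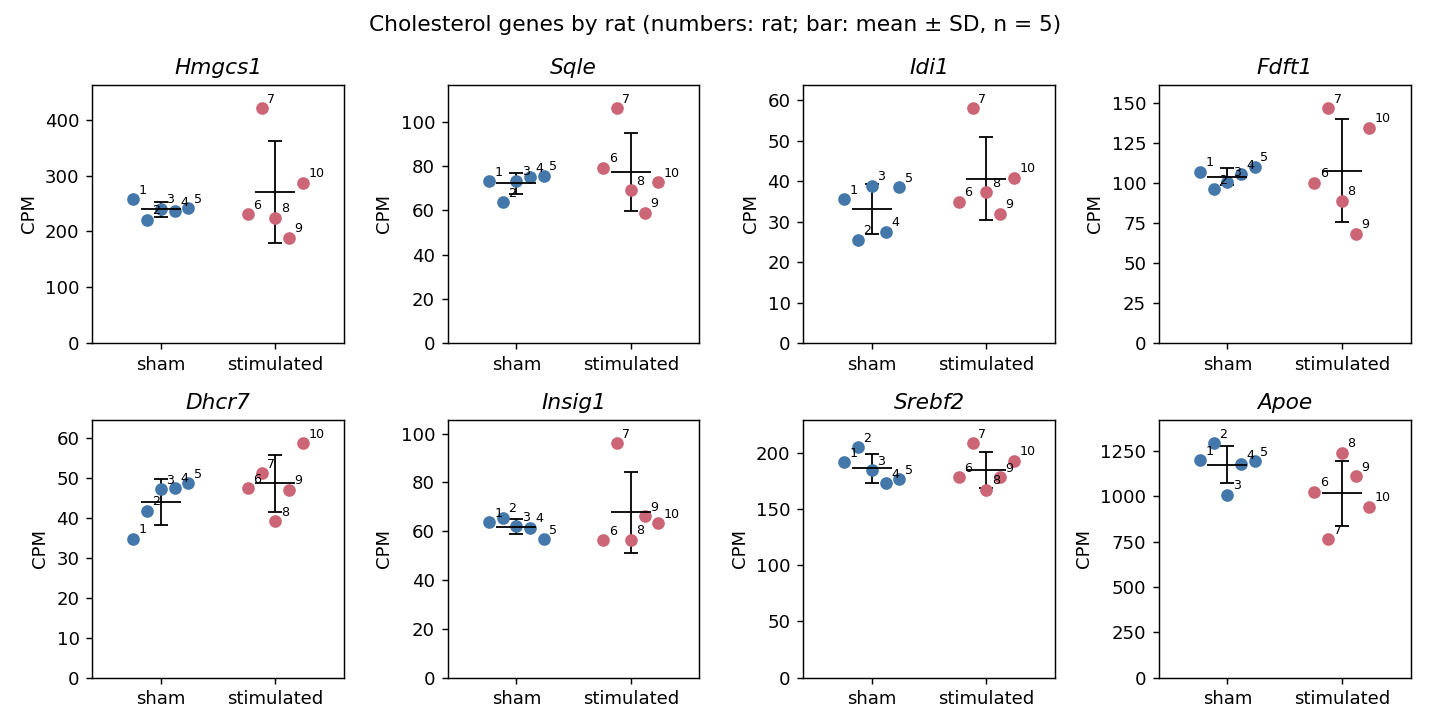
CPM of each of the 8 genes on a linear axis from 0, with 1 numbered point per rat in sham (blue) and stimulated (red) rats and the mean ± SD (n = 5 each). Stimulated rat 7 stands above the other rats for Hmgcs1, Sqle, Idi1, Fdft1 and Insig1 and below them for Apoe, and the groups overlap in each panel.

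Hmgcs1 (NM_017268) encodes the cytosolic synthase that forms HMG-CoA, an early intermediate of the mevalonate route. Its CPM in sham rats 1 to 5 was 257.2, 220.5, 240.7, 236.3 and 241.6, and in stimulated rats 6 to 10 it was 230.4, 420.3, 224.2, 188.2 and 287.1. Sham rats lay close together, and stimulated rats held both the highest and the lowest values. The sham group averaged 239.2 ± 13.1 (SD, n = 5) and the stimulated group 270 ± 91.1 (SD, n = 5), a log2 fold change of 0.17 (SE 0.17, 95% interval -0.19 to 0.54, adjusted p = 0.765). Rat 7 carried 1.76 times the sham mean, and without rat 7 the log2 fold change was -0.04.

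Idi1 (NM_053539) encodes the isomerase that interconverts the isoprenoid units. It was counted at 35.6, 25.6, 38.9, 27.5 and 38.5 CPM in sham rats 1 to 5 and at 35, 58, 37.3, 32 and 40.9 CPM in stimulated rats 6 to 10. Rats 7 and 10 were above all sham rats, and the other stimulated rats were within the sham range. Idi1 had the largest positive fold change of the 8 genes, 0.29 on the log2 scale (SE 0.17, 95% interval -0.07 to 0.65, adjusted p = 0.581), which became 0.13 without rat 7.

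Fdft1 (NM_019238) encodes squalene synthase, the first step committed to sterols. Its CPM in sham rats was 106.9, 96.1, 100.7, 105.5 and 110.1, and in stimulated rats 6 to 10 it was 100.1, 146.5, 88.95, 68.2 and 134.3. Rats 7 and 10 exceeded every sham rat, and rats 8 and 9 were below every sham rat. The difference of the groups was close to 0, with a log2 fold change of 0.05 (SE 0.17, 95% interval -0.31 to 0.41, adjusted p = 0.942), and the sign turned without rat 7 (-0.09), without rat 10 (-0.04) and with limma-voom (-0.00043).

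Sqle (NM_017136) encodes squalene epoxidase, a rate-controlling step after squalene. Sham rats carried 73.4, 63.7, 73.5, 75 and 75.8 CPM and stimulated rats 6 to 10 carried 79.3, 106.2, 69.2, 59 and 72.7 CPM. Rat 7 was highest, at 1.47 times the sham mean, and rat 9 was lowest. The log2 fold change was 0.10 (SE 0.13, 95% interval -0.19 to 0.38, adjusted p = 0.846) and -0.04 without rat 7.

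Dhcr7 (NM_022389) encodes the reductase that forms cholesterol from 7-dehydrocholesterol. It was counted at 34.8, 41.8, 47.1, 47.5 and 48.7 CPM in sham rats and at 47.5, 51.1, 39.1, 47 and 58.7 CPM in stimulated rats 6 to 10. Here rat 10 was highest and sham rat 1 lowest, unlike the other 4 enzymes, each of which was highest in rat 7. The log2 fold change was 0.15 (SE 0.12, 95% interval -0.12 to 0.41, adjusted p = 0.72). It was 0.065 without sham rat 1 and 0.069 without rat 10.

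Among the regulators, Insig1 (NM_022392) was counted at 63.6, 65.6, 62.1, 61.4 and 56.8 CPM in sham rats and at 56.3, 96.1, 56.5, 66.2 and 63.2 CPM in stimulated rats 6 to 10. Insig1 is itself a target of SREBP-2. Rat 7 carried 1.55 times the sham mean, and the other 4 stimulated rats lay within or next to the sham range. The log2 fold change was 0.13 (SE 0.14, 95% interval -0.16 to 0.42, adjusted p = 0.781) and -0.03 without rat 7.

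Srebf2 (NM_001033694) varied least of the 8 genes among stimulated rats. Its CPM was 191.8, 205.2, 184.3, 172.8 and 176.7 in sham rats and 178.5, 208.6, 167, 178.2 and 192.9 in stimulated rats 6 to 10. Rat 7 was again the highest, though only just above sham rat 2. The fitted log2 fold change was -0.01 (SE 0.08, 95% interval -0.19 to 0.17, adjusted p = 0.984), and its sign turned with scaling by library size alone (0.02) and when sham rat 2 (0.02) or stimulated rat 8 (0.01) or 9 (0.005) was left out.

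Apoe (NM_138828) was the gene with the lowest p-value and the largest negative fold change of the 8. Sham rats carried 1198, 1292, 1008, 1177 and 1194 CPM, and stimulated rats 6 to 10 carried 1024, 763.6, 1239, 1111 and 942 CPM. Rats 7 and 10 were below every sham rat, and rat 8 was above 4 of the 5 sham rats. The sham group averaged 1174 ± 103 (SD, n = 5) and the stimulated group 1016 ± 179 (SD, n = 5), a log2 fold change of -0.21 (SE 0.11, 95% interval -0.45 to 0.04, unadjusted p = 0.0901, adjusted p = 0.563). It stayed below 0 whichever rat was left out, from -0.31 without rat 8 to -0.12 without rat 7. The 4 further rows of Apoe overlap in sequence and are not independent of it. Their log2 fold changes lay between -0.24 and -0.22, and each was lowest in rat 7.

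The spread among stimulated rats exceeded that among sham rats for all 8 genes on the log2 CPM scale, as it did for 69.5% of all features. The SD was 0.45 in stimulated against 0.08 in sham rats for both Fdft1 and Hmgcs1, and 0.32 against 0.08 for Insig1. For Srebf2 (0.12 against 0.10) and Dhcr7 (0.21 against 0.20) the SDs were nearly equal. The lowest single count of any of the 8 genes was 335 reads, for Idi1 in sham rat 2, where counting alone gives a coefficient of variation of 5.46%.

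**Figure D2:**
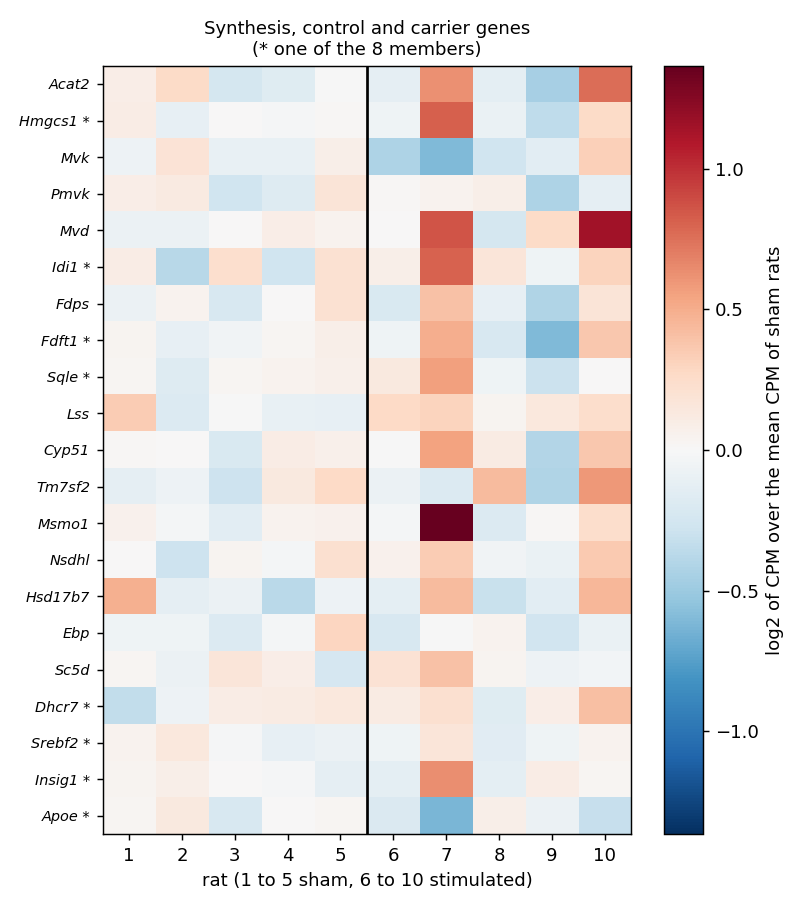
Log2 ratio of the CPM of each rat to the mean CPM of sham rats, for 18 synthesis genes, Srebf2, Insig1 and Apoe (rows, with the 8 described genes starred) in rats 1 to 10 (columns). Rat 7 has the deepest red for Msmo1 and is blue for Mvk and Apoe, and rat 9 is blue for Fdft1 and Hmgcs1.

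It was next asked whether the 8 genes varied together from rat to rat. Pearson and Spearman correlations of log2 CPM over the 10 rats were computed for the 28 pairs, with permutation tests (100000 resamples, two-sided) and adjustment over the 28 pairs. The adjusted p-value of r was under 0.05 for 4 pairs, and that of rho for 1 pair. The pair that passed in both was Hmgcs1 and Fdft1, with r = 0.90 (permutation p = 0.00039, adjusted 0.0109) and rho = 0.96 (permutation p = 5e-05, adjusted 0.0014). Without rats 7 and 9, the farthest from the median of Hmgcs1, r was 0.92, and without rat 7 alone it was 0.96.

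The other 3 pairs passed only in Pearson's r. Hmgcs1 and Sqle had r = 0.90 (permutation p = 0.00306, adjusted 0.0298) and rho = 0.61 (permutation p = 0.0681, adjusted 0.212). Their r was 0.29 without rats 7 and 9 and 0.67 without rat 7 alone. Insig1 and Srebf2 had r = 0.74 (permutation p = 0.00319, adjusted 0.0298), rho = 0.69 (permutation p = 0.0352, adjusted 0.172) and r = 0.68 without rats 7 and 6. Idi1 and Apoe were inversely related, with r = -0.82 (permutation p = 0.00475, adjusted 0.0333), rho = -0.66 (permutation p = 0.0436, adjusted 0.172) and r = -0.39 without rats 7 and 2, or -0.58 without rat 7 alone.

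Among the 10 pairs of enzymes, r ranged from 0.30 for Sqle and Dhcr7 to 0.90, with a median of 0.70. The median over all pairs of tested features was -0.001, and 2.68% of those pairs exceeded the enzyme median. Those pairs were not matched for count and include features with far fewer counts than the enzymes. With values centred on the mean of each group the enzyme median was 0.74, and without rat 7 it was 0.39. The 4 pairs with Dhcr7 had the lowest r among the enzymes. All 7 correlations with Apoe were negative, from -0.82 to -0.47. Without rat 7, those with Insig1 (-0.008) and Srebf2 (-0.04) were close to 0, and the other 5 ranged from -0.72 with Dhcr7 to -0.32 with Sqle. One of the 7 had an adjusted p-value under 0.05.

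**Figure D3:**
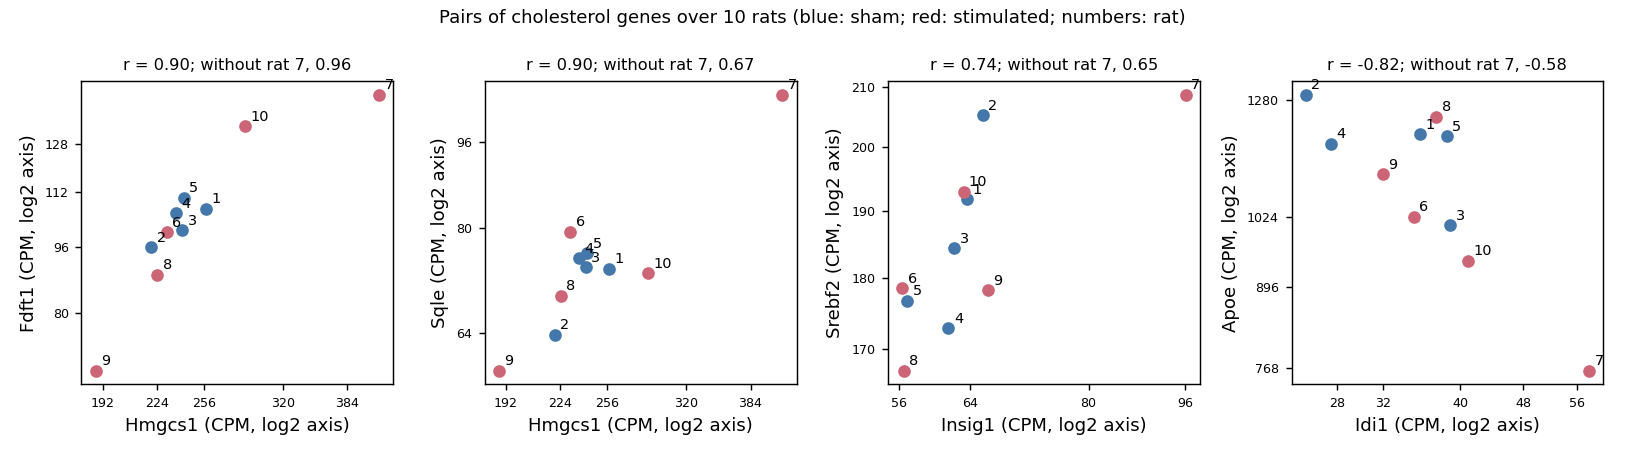
CPM of the 4 pairs whose Pearson correlation had an adjusted p-value under 0.05, on log2 axes, with 1 numbered point per rat (blue sham, red stimulated). Hmgcs1 and Fdft1 lie along a line with and without rat 7 (r = 0.90 and 0.96), and Idi1 and Apoe run in opposite directions (r = -0.82 and -0.58).

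The other genes of the pathway were taken from a list of 55 genes in 7 roles that includes the 8 described ones. Of these, 51 were tested. Lbr, Srebf1 and Cyp46a1 were not matched to a row. In this list 0 genes had an adjusted p-value under 0.05. By unadjusted p-value, 6 of 51 were under 0.05, all higher in stimulated rats, which is 11.8% where 6.7% of all features had such a value in that direction and 9.86% in either direction. The median log2 fold change over the list was 0.11, beside 0.01 over all features. Leaving out 1 rat changed the 6 genes to between 3 and 13. Without rat 7, sham rat 2 or sham rat 5, the same 3 genes were left, Npc2 and Clu among them. Without rat 8 there were 13, of which 10 were higher, and Apoe was among the lower ones.

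Of 20 tested synthesis genes, 15 had a fold change above 0 and 5 below, with a median log2 fold change of 0.13. The share above 0 was 75% here and 52.2% over all features. The latter share also stands beside the counts of the roles below. Rat 7 was highest for 9 of the 20 genes and rat 10 for 6. Of the 5 described enzymes among them, Hmgcs1 (-0.041), Sqle (-0.045) and Fdft1 (-0.085) were below 0 without rat 7. Mvd (NM_031062), the mevalonate diphosphate decarboxylase, was counted at 40.9 to 46.1 CPM in sham rats and at 43.3, 78.5, 36.7, 51.9 and 95.9 CPM in stimulated rats 6 to 10, with a log2 fold change of 0.50 (standard error 0.22, adjusted p = 0.464). Rats 7, 9 and 10 were above all sham rats. Over the 15 synthesis genes outside the 8 described ones, rat 7 was highest for 5 and rat 10 for 5.

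Of the 6 tested genes of sterol sensing, 2 had a fold change above 0 and 4 below, and none had an unadjusted p-value under 0.05. Insig2, the partner of Insig1, had a log2 fold change of -0.21 (standard error 0.19, adjusted p = 0.73). Among 9 tested genes of uptake and transport, 8 were above 0. Npc2 (NM_173118), which hands cholesterol out of lysosomes, averaged 108.2 ± 10.2 CPM in the sham group (SD, n = 5) and 134.7 ± 21.2 CPM in the stimulated group (SD, n = 5), with 4 of 5 stimulated rats above all sham rats and a log2 fold change of 0.32 (standard error 0.11, unadjusted p = 0.0149, adjusted p = 0.417).

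Among 9 tested carriers, efflux pumps and liver X receptors, 4 were above and 5 below 0. Clu (NM_053021), clusterin, is another apolipoprotein of astrocytes. In contrast to Apoe it was counted at 1063, 1042, 1065, 1136 and 1228 CPM in sham rats and at 1109, 1581, 1134, 1594 and 1525 CPM in stimulated rats 6 to 10. Rats 7, 9 and 10 lay above all other rats. The log2 fold change was 0.33 (standard error 0.11, unadjusted p = 0.0108, adjusted p = 0.409). The efflux pump gene Abca1 was within its spread, at a log2 fold change of 0.31 (standard error 0.26, adjusted p = 0.708).

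Of the 7 tested genes of oxidation and esterification, 6 were above 0. Cyp27a1 (NM_178847), the sterol 27-hydroxylase, was counted at 4.42 to 7.45 CPM in sham rats and at 5.84, 18.8, 3.9, 4.44 and 30.1 CPM in stimulated rats 6 to 10. The high values were those of rats 7 and 10 alone, and the log2 fold change was 1.14 (standard error 0.49, adjusted p = 0.464). Ch25h (NM_001025415), the cholesterol 25-hydroxylase, was rare. It had 0 counts in sham rat 2, which allows up to 0.229 CPM (3 counts, for counting error only). The other sham rats had 8 to 34 counts. Stimulated rats 6 to 10 had 23, 104, 29, 40 and 23 counts, and the value of rat 7 was 4.83 CPM. The log2 fold change of Ch25h was 1.34 (standard error 0.62, adjusted p = 0.497). In edgeR's quasi-likelihood test its unadjusted p-value was not under 0.05 without sham rat 2, 4 or 5 or without stimulated rat 7, 8 or 9.

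**Figure D4:**
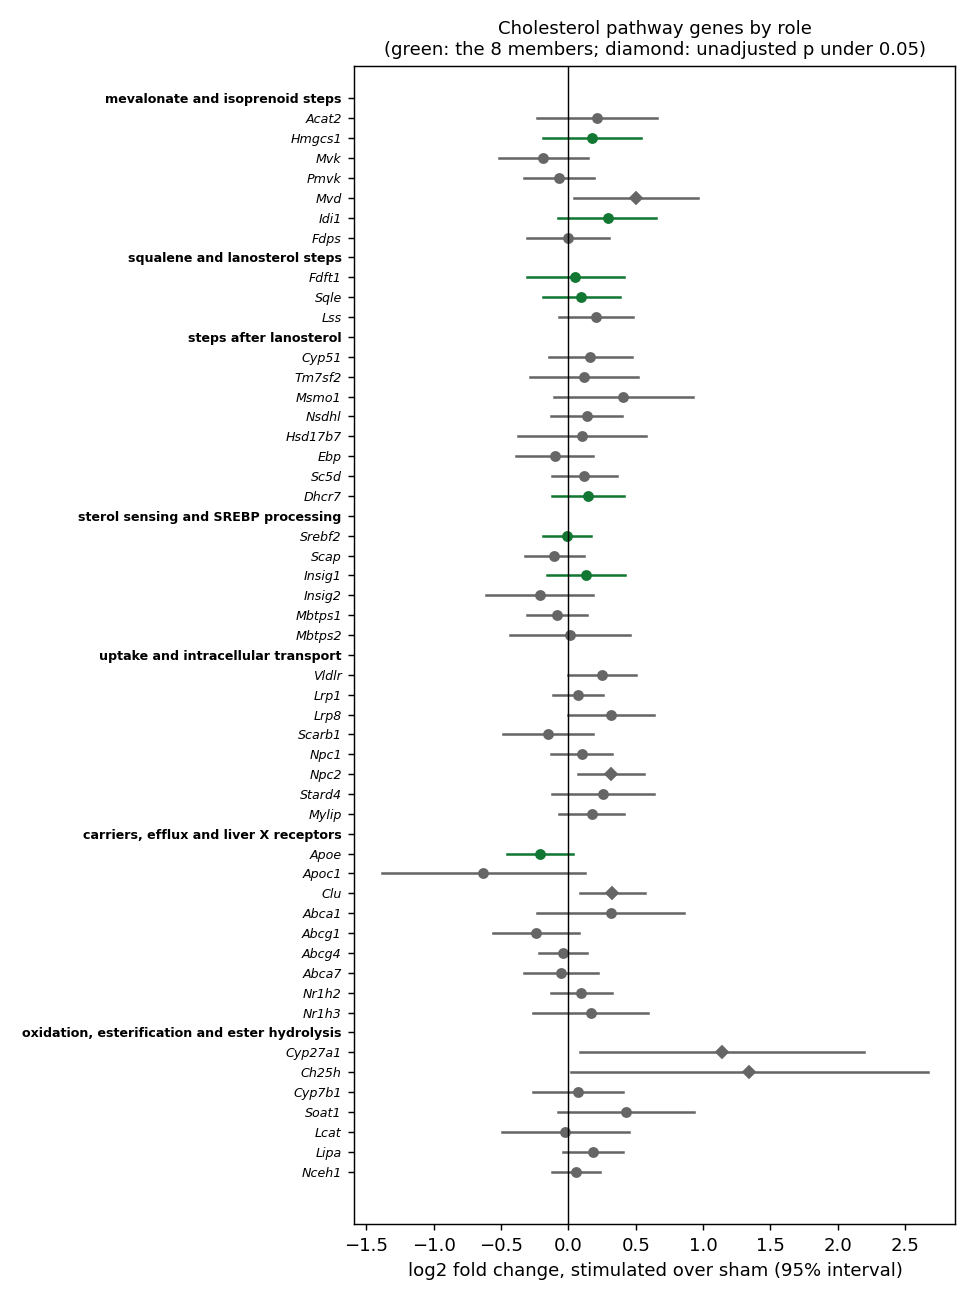
Log2 fold change of stimulated over sham rats with its 95% interval for 48 tested genes of the pathway list, by role, with the 8 described genes in green and diamonds for an unadjusted p-value under 0.05. The intervals of all 8 described genes cross 0, and the 5 diamonds, from 0.32 for Npc2 to 1.34 for Ch25h, lie above 0.

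Summed markers of some cell types also lay outside the sham range in rats 7 and 10. Such a sum follows its most abundant markers. The summed CPM of astrocyte markers (9 tested of 10 listed) was 4643 to 5285 in sham rats and 4683, 9556, 4895, 5908 and 8876 in stimulated rats 6 to 10, so that rats 7 and 10, with the lowest Apoe, had the highest astrocyte sums. Of these 9 markers, 6 had a fold change above 0, so the sum does not describe each of them. Sox9 was the astrocyte marker without a value. The sum of 10 of 10 oligodendrocyte markers was lowest in rat 7, at 2371, where sham rats ranged from 2887 to 4170 and the other stimulated rats from 3340 to 4004. Rat 7 also had the lowest sum of dentate granule cell markers, 206.2, and the highest sum of 10 of 10 microglial markers, 638.7, beside 354 to 464.4 in sham and 393 to 638.7 in stimulated rats. The neuronal sum (10 of 10 markers) was 5092 to 5561 in sham and 4889 to 5634 in stimulated rats.

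The endothelial sum, over 8 of 10 markers, was 188.6 to 202.3 in sham and 180.8 to 371 in stimulated rats, with the highest value in rat 10 and the lowest in rat 7. Choroid plexus markers (8 of 8) summed to 5.29 to 21.1 CPM in sham and 10 to 37.8 CPM in stimulated rats, and CA1 markers (4 of 4) to 120.6 to 202.4 and 60.3 to 227.4 CPM. Immediate early genes (9 of 9), which follow neuronal activity, summed to 131.8 to 171.9 CPM in sham rats and to 183.4, 654.6, 127.8, 1621 and 651.8 CPM in stimulated rats 6 to 10. Rat 9, with the highest such sum, had the lowest Hmgcs1, Sqle and Fdft1. Rats 7 and 10, with the next highest sums, had the highest values of Hmgcs1, Idi1, Fdft1 and Dhcr7. For Sqle, rat 7 was highest and rat 10 was within the sham range. None of the markers tested was at 0 in every rat. The part of cell composition and of recent activity in the values of rat 7 was not tested.

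The genes most like the 5 enzymes were sought by Pearson correlation with their mean log2 CPM, centred on the group mean, over the 10 rats and 10716 features with a symbol and a mean count of at least 50. The 5 highest were Sorcs3 (0.95), Fabp5 (0.95), Cop1 (0.95), Ppan (0.94) and Ciart (0.94), none of them on the pathway list. Without rat 7, the r of these 5 ranged from 0.867 for Cop1 to 0.902 for Ppan. They were chosen for a high r over the same rats, so these values are no separate check. Sorcs3, a sorting receptor of the VPS10 family, was counted at 49.6 to 65.4 CPM in sham rats and at 66.2, 161.9, 47.6, 40.4 and 106.8 CPM in stimulated rats 6 to 10. Ciart, a repressor of the circadian clock, was counted at 7.02 to 11.2 CPM in sham and 3.52 to 8.08 CPM in stimulated rats. Fabp5, a fatty acid binding protein, was counted at 55.8 to 83 CPM in sham rats and at 174.9 CPM in rat 7. Of the pathway list, 0 genes were among the 50 most alike, and the highest were Nsdhl (0.87), Msmo1 (0.83), Fdps (0.83) and Cyp51 (0.82). These correlations describe 10 libraries and carry no test.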

How the data were processed

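Polyadenylated RNA of 10 rats was sequenced in single reads of 36 cycles. Per the labels and methods, the authors aligned reads to RN4 with BWA and deposited raw counts per transcript, 1 column per rat, matched by rat number. The methods name an Ensembl annotation, whereas rows carry RefSeq identifiers. The counting of reads shared by transcripts and the use of strand were not given in the sources used here. The methods count fewer stimulated animals than the labels, so each rat was also left out in turn.

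The row of unmapped reads was set aside. Rows were named by transcript identifier from the RefSeq table of GRCr8. Features with a summed count under 46, the 30th percentile, were left out, and 22447 were tested with edgeR 4.0.16 (quasi-likelihood, trimmed mean scaling, R 4.3.3) with Benjamini-Hochberg adjustment over all of them. Intervals are 95%. Log2 CPM used a prior count of 2. The fit was tested on simulated data. Members and lists were chosen with earlier results of these data known. Named from the pathway list were genes with an unadjusted p-value under 0.05 (up to 4 a role) and preset genes including Insig2, Abca1, Srebf1 and Cyp46a1. Some genes of the list are not reported here. Alternatives used DESeq2 1.42.0, limma 3.58.1, other scalings and filters. Correlations used numpy 2.4.6 and scipy 1.17.1. Rats are separate animals.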

Additional observations from a re-analysis of the deposited data

Results flagged for a closer look

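The distance from the highest or lowest rat to the next one was divided by the range of the group for the CPM of the 8 genes in both groups, 16 groups of 5 rats in all. It exceeded Dixon's 95% critical value of 0.71 in 2 of them, where chance flags about 1 in 20 groups. For Insig1, stimulated rat 7 was apart at 96.1 CPM, with a gap of 0.751 of the range. For Sqle, sham rat 2 was apart at 63.7 CPM, below the other sham rats, with a gap of 0.799 of the range. The library of sham rat 2 had the fewest aligned counts, 13552309. The part of depth in this value was not tested.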

How the results depend on the processing

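The count of the 8 genes with an adjusted p-value under 0.05 was 0 under each of the 21 alternatives. The count with an unadjusted p-value under 0.05 was 0 under 19 of them and ranged from 0 to 1 across the fits without 1 rat, where Apoe was the gene called without sham rat 3 and without stimulated rat 8. The count of pathway genes ranged from 3 to 13 when 1 rat was left out and was within 1.5 times the reported 6 otherwise. The median correlation of the enzymes was 0.386 without stimulated rat 7 and lay between 0.63 and 0.753 under the other alternatives. Of 168 refitted fold changes of the 8 genes, 158 kept their direction. Those that turned were Srebf2 with library size alone (0.017), Fdft1 with limma-voom (-0.00043) and fits without 1 rat, where the ranges were -0.055 to 0.022 for Srebf2, -0.085 to 0.178 for Fdft1, -0.041 to 0.28 for Hmgcs1, -0.045 to 0.18 for Sqle and -0.031 to 0.175 for Insig1. The lower ends of the last 4 were those without rat 7, and the cause was not tested. No paired analysis was possible because the labels number the rats 1 to 10 without pairing them.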

Other observations

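Single genes of the pathway list were also chosen after their values were seen. Msmo1 (NM_080886), the sterol methyl oxidase that acts after lanosterol, was counted at 110.4 to 127 CPM in sham rats and at 119.5, 314.4, 107.2, 123.7 and 144.4 CPM in stimulated rats 6 to 10. Rats 7 and 10 were above all sham rats. Apoc1 (NM_001109996), an apolipoprotein gene next to Apoe, was counted at 11.6, 13.7, 8.22, 11.1 and 14 CPM in sham rats and at 11.6, 3.99, 13.6, 5.82 and 2.89 CPM in stimulated rats 6 to 10. Rats 7, 9 and 10 were below all sham rats. The unadjusted p-value of edgeR's quasi-likelihood test was 0.112 for Msmo1 and 0.0942 for Apoc1.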
